A study of Mus musculus with 2 samples.

Results

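The heat-shock chaperone genes described here are 10 of the 31053 genes counted in single cells of mouse kidney cortex. They were taken by symbol. The 6 counted as inducible are Hspa1a, Hspa1b, Hspb1, Dnajb1, Bag3 and Hsph1, and the 4 counted as constitutive are Dnaja1, Hsp90aa1, Hspa8 and Hspd1. Constitutive is a label of this grouping and does not exclude that stress raises a gene. The genes were chosen by their levels in these same libraries, with the differences between PT I-PpoI and wild type already known, so those differences between the libraries are a description and carry no test. There was 1 library of a PT I-PpoI mouse kidney and 1 library of a wild-type kidney, both from cortex at 16 weeks of age. I-PpoI is a homing endonuclease that cuts DNA at its recognition sites, and in the PT I-PpoI mouse it is expressed in proximal tubular epithelial cells. The driver of its expression, the strain and the number of animals per library are not given in the sources used here. With 1 library per group, the genotype, the animal and the handling of each kidney cannot be told apart, and no test between the groups is possible. Every interval below covers counting error only.

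Chaperones bind unfolded stretches of protein, keep them from aggregating and help them refold. When unfolded protein builds up, heat-shock factor 1 is released from chaperones, binds heat-shock elements in promoters and drives transcription of the inducible chaperone genes within minutes, while the constitutive members are made in unstressed cells to fold new proteins. In kidney, induction of HSP70 and of the small heat-shock protein HSP27 is known from ischaemia, toxic injury and the osmotic load of the medulla, and warm enzymatic digestion of tissue is known to induce the same genes during the preparation of single cells.

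The promoters of the inducible HSP70 pair and of Hspb1 are shown first because these 3 genes were past 2-fold higher in PT I-PpoI in more cell classes than the other members, and that of Dnajb1 beside them because its pattern over cell classes was another one. Each stretch is the 250 bases before the transcription start in RefSeq on GRCm38.p6, written 5′ to 3′ on the strand of the gene. Capitals mark a pair of heat-shock element units that face each other, searched as GAANNTTC and TTCNNGAA. Both motifs read the same on either strand, and they may share a unit.
Hspa1a, chr17:34972157-34972406, minus strand: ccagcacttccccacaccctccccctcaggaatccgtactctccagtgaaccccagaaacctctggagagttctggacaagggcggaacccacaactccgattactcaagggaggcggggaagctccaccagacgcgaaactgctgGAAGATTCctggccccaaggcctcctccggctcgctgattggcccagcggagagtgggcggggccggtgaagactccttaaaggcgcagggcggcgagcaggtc
Hspa1b, chr17:34959239-34959488, minus strand: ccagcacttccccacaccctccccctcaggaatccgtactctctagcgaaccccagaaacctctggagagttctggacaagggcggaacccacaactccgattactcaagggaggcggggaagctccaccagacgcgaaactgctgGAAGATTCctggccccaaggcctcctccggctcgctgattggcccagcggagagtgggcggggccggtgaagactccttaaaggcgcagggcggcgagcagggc
Hspb1, chr5:135887669-135887918, plus strand: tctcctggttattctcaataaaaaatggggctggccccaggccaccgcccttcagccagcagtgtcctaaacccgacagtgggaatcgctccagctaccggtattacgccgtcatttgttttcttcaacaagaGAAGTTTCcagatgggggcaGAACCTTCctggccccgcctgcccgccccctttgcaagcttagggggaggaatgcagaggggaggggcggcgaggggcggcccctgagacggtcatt
Dnajb1, chr8:83607925-83608174, plus strand: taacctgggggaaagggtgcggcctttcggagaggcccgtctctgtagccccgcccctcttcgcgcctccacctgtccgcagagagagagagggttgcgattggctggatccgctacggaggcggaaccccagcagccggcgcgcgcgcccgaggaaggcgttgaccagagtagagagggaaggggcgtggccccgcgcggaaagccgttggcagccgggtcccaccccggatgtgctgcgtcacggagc

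Hspa1a and Hspa1b differ at 3 of these 250 bases, and both hold GAANNTTC with its first base 104 bases before the start. Hspb1 holds the motif at 117 and at 97 bases before its start. The Dnajb1 window holds neither motif, and the same was found for the windows of Bag3 and Hspd1, while those of Hsph1 and Dnaja1 hold 1 match each. Promoter entries were found for 8 of the 10 genes, all but Hspa8 and Hsp90aa1. Over 32851 promoter entries, 12.8% hold at least 1 of the motifs within these 250 bases, so a match alone is common and says nothing of binding. A stricter search for 3 such units in a row found none in the 8 windows, and 0.466% of the promoter entries hold them.

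Hspa1a (chr17, 34969190 to 34972156) and Hspa1b (chr17, 34956436 to 34959238) are single-exon neighbours on the minus strand in GENCODE M21 and encode nearly identical stress-inducible HSP70 proteins. Of the 2918 stretches of 50 bases in the Hspa1a transcript, 58.8% occur unchanged in Hspa1b. In the last 500 bases of either transcript, the end that 3′ sequencing reads, none of the 451 such stretches occurs in the other. The authors' handling of reads that fit both genes is not given in the sources used here, so the pair is mostly given as a sum. Hspb1, the gene of HSP27, has 2 exons (chr5, 135887919 to 135889563), and Dnajb1, the HSP40 partner that hands clients to HSP70, has 3 (chr8, 83608193 to 83612653). Bag3, the co-chaperone that links HSP70 to autophagy, has 4 exons (chr7, 128523616 to 128546981), and Hsph1, the HSP110 nucleotide exchange factor, has 12 (chr5, 149614287 to 149636376). Among the members counted as constitutive, Hspa8 is the housekeeping HSC70 (chr9, 40800984 to 40810087) and Hsp90aa1 is the alpha form of cytosolic HSP90 (chr12, 110690605 to 110702728). The constitutive form of cytosolic HSP90 is Hsp90ab1, so Hsp90aa1 stands in this group by label only. Dnaja1 is an HSP40 of unstressed cells (chr4, 40722150 to 40737149), and Hspd1 is the mitochondrial chaperonin HSP60 (chr1, 55077835 to 55088243).

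The libraries held 93257620 UMIs (PT I-PpoI) and 107977310 UMIs (wild type), and 5118 cells of PT I-PpoI and 11953 of wild type were kept. The PT I-PpoI cells were deeper, with a median of 11078.5 UMIs against 2687 in wild type. The kept cells shared 22 barcodes. Clustering without the chaperone genes gave 18 named classes, and the 12 that held at least 50 cells of both libraries are compared below. A level is given as CPM, the gene's UMIs over all UMIs of the class in that library, times 1000000. The class with proximal tubule markers, here PT-like, had 170 cells in PT I-PpoI (3.32% of cells) and 5946 cells in wild type (49.7%), and their 20 proximal tubule markers summed to 25328 CPM in PT I-PpoI, against 52746 CPM in wild type. A gene was compared in a class where the libraries together held 10 or more of its UMIs. All 10 members met this in 11 classes, and in T or NK cell-like cells all but Bag3 did, with 9 UMIs. A ratio of 2-fold or more either way is called past 2-fold.

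The inducible HSP70 pair stood higher in the PT I-PpoI library in each of the 12 classes, the classes that do not carry the PT program included. Over all kept cells the sum of Hspa1a and Hspa1b was 1257 CPM in PT I-PpoI and 185 CPM in wild type, a value that also holds the difference in cell make-up. In macrophage-like cells, which had the highest level in both libraries, it was 5795 CPM (8125 UMIs in 250 cells) in PT I-PpoI and 1150.05 CPM (2356 UMIs in 681 cells) in wild type, a log2 ratio of 2.33 (95% interval 2.27 to 2.40). Endothelial-like cells followed with 4202 CPM in PT I-PpoI and 598 CPM in wild type, a log2 ratio of 2.81 (2.76 to 2.86). Their 848 cells of PT I-PpoI held 36.2% of the HSP70 UMIs in kept cells of that library, and the 2239 of wild type held 31.6% of those in its kept cells. Mural-like cells stood at 3956 CPM in PT I-PpoI and 387 CPM in wild type (log2 3.35), and dendritic cell-like cells at 2760.3 CPM in PT I-PpoI, against 383 CPM in wild type (log2 2.85). Free RNA was estimated at 18.9% of the UMIs of mural-like cells in PT I-PpoI, against 80.4% in wild type, and would give 162 CPM of the pair in PT I-PpoI and 31.1 CPM in wild type. The wild-type share was 54.1% with a profile from barcodes of at most 100 UMIs. The wild-type barcodes behind the 80.4% held at most 333 UMIs, while wild-type mural-like cells had a median of 3880 UMIs. Shares were read from markers of other classes, so expression of these by the class itself, or doublets, can raise them. Free RNA values here and below may thus be too high.

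The largest ratio was in T or NK cell-like cells, with 1953 CPM in PT I-PpoI and 125 CPM in wild type, a log2 ratio of 3.96 (3.73 to 4.20) or 15.5-fold. In parietal-like cells, named from the epithelium that lines Bowman's capsule, the pair stood at 1037 CPM in PT I-PpoI, against 113 CPM in wild type (log2 3.19). By level, T or NK cell-like cells ranked 5 of 12 in PT I-PpoI, against 9 in wild type. In PT I-PpoI the counting intervals of the levels of T or NK cell-like and thin limb-like cells overlapped, as did those of parietal-like and principal cell-like cells. Such overlap does not exclude a difference beyond counting error, and the ratios between classes were not computed. In wild type the intervals also overlapped between mural-like, dendritic cell-like and principal cell-like cells. They overlapped as well among distal convoluted tubule-like, T or NK cell-like, parietal-like and thick ascending limb-like cells, each set against its neighbour in the order.

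The tubular classes outside the proximal tubule had ratios between 1.22 and 1.87. Thin limb-like cells stood at 1829 CPM in PT I-PpoI and 498 CPM in wild type (log2 1.87), and principal cell-like cells of the collecting duct at 1079 CPM in PT I-PpoI, against 334 CPM in wild type (log2 1.69). Intercalated cell-like cells, the acid-base cells of the collecting duct, had 639.9 CPM in PT I-PpoI and 228 CPM in wild type (log2 1.49). Thick ascending limb-like cells had 385 CPM in PT I-PpoI and 109 CPM in wild type (log2 1.82). The smallest ratio was in distal convoluted tubule-like cells, with 353 CPM in PT I-PpoI and 151 CPM in wild type, 1.22 (1.03 to 1.42). It was 0.93 after subtraction of free RNA, so 11 of 12 classes were then past 2-fold.

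PT-like cells had the lowest level of the 12 classes in both libraries. The pair stood at 263 CPM (554 UMIs, interval 242 to 286) in PT I-PpoI and at 35.8 CPM (1195 UMIs) in wild type, a log2 ratio of 2.88 (2.73 to 3.02) or 7.35-fold. RNA free in the suspension would give about 54.6 CPM in PT I-PpoI and 7.29 CPM in wild type, so both levels lay above it. Of the PT I-PpoI UMIs, 67 came from 2 cells in the cluster led by Serpina1f. Without that cluster the log2 ratio was 2.70, and in the cluster led by Slc5a12, an early-segment transporter, it was 2.44, from 333 CPM in 104 PT I-PpoI cells and 61.5 CPM in 798 wild-type cells. The macrophage markers summed to 756 CPM in the PT-like class of PT I-PpoI and 231 CPM in that of wild type, with 3 of 10 markers higher in PT I-PpoI and Adgre1, Mrc1 and Cx3cr1 at 0 there. Their part in the result was not tested.

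**Figure D1:**
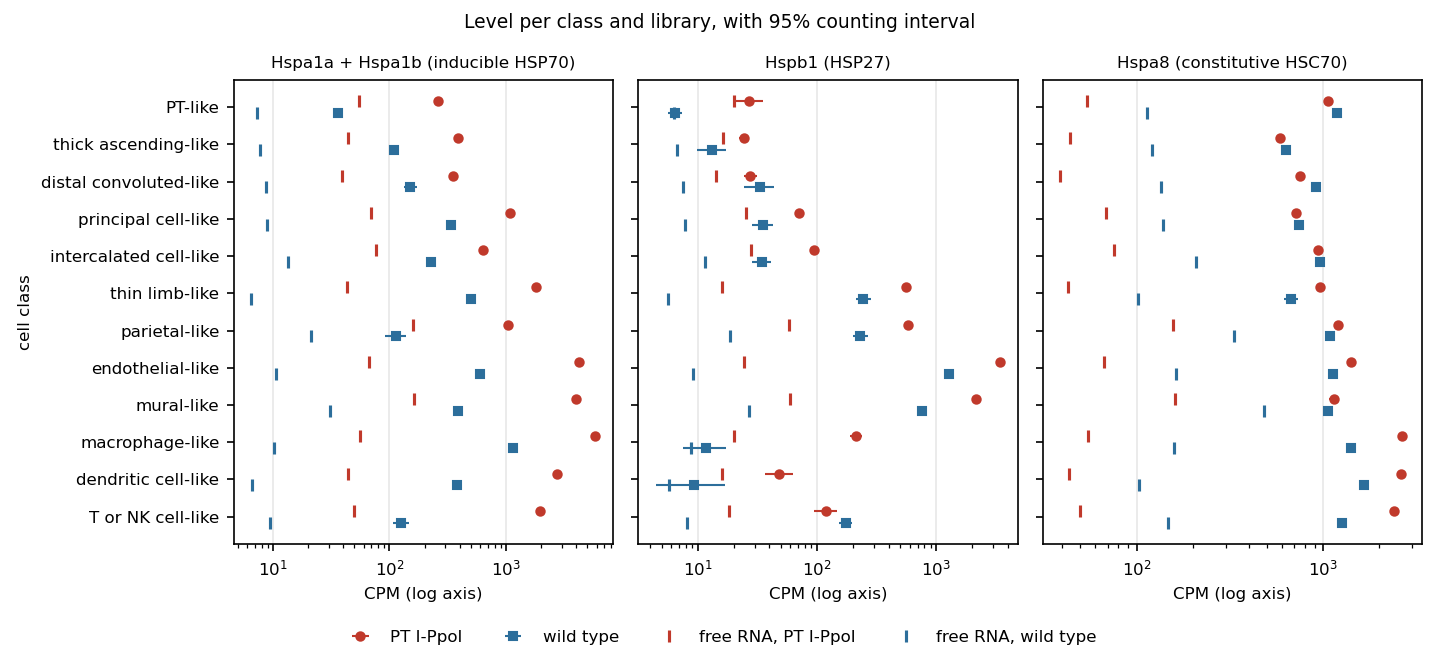
Level in CPM on a log axis (x) of Hspa1a plus Hspa1b, Hspb1 and Hspa8 in the 12 classes (y), with PT I-PpoI as red circles, wild type as blue squares, bars for the 95% counting interval and short vertical marks for the level that free RNA would give. For the HSP70 pair the red circles lie right of the blue squares in all 12 classes. For Hspa8 the libraries lie closer together outside the 3 immune classes than in them. Among these other classes thin limb-like cells differ most, with 966 CPM in PT I-PpoI, against 671 CPM in wild type. For Hspb1 in PT-like cells both symbols sit near their free RNA marks.

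Among the 13089 genes compared in PT-like cells, 16.8% were past 2-fold higher in PT I-PpoI and 4.68% past 2-fold lower, and the median gene stood at 0.34. The members' counts are set beside these shares in each class. In PT-like cells 3 of the 6 inducible members were past 2-fold higher, and no constitutive one. The median log2 ratio of the inducible members was 1.00 and that of the constitutive members was −0.29. Hspa1a and Hspa1b count as 2 members in these medians and counts, and stood at 2.92 and 2.83 in PT-like cells. Of the other inducible members there, Hspb1 stood at 2.09, Dnajb1 at −0.08, Bag3 at −0.60 and Hsph1 at −0.12. The median of 1.00 thus rests on the pair and Hspb1. In thick ascending limb-like cells, 2 of 6 inducible members were past 2-fold higher (3.59% of all genes), in distal convoluted tubule-like cells 2 (3.58%), in principal cell-like cells 3 (3.49%) and in intercalated cell-like cells 3 (2.38%). In the thick ascending limb-like and distal convoluted tubule-like classes these were Hspa1a and Hspa1b alone. The count was 4 in thin limb-like (5.73%), parietal-like (5.79%), endothelial-like (7.05%) and mural-like cells (7.08%).

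All 6 inducible members were past 2-fold higher in macrophage-like cells (6.31% of all genes) and in dendritic cell-like cells (8.27%). The call of Hspb1 in dendritic cell-like cells rests on 57 UMIs in PT I-PpoI, 84.2% of them in 6 cells, against 10 UMIs in wild type, and with doublets kept its log2 ratio was 0.41, which leaves 5 members past 2-fold. In T or NK cell-like cells 3 of the 5 compared were (5.53%). Of the members counted as constitutive, only Hsp90aa1 was past 2-fold higher, in macrophage-like and dendritic cell-like cells, the dendritic value being 0.99 with TMM factors. No member was past 2-fold lower in any of the 12 classes. The share of all genes past 2-fold lower was 5.14% in thick ascending limb-like, 7.15% in distal convoluted tubule-like, 5.58% in principal cell-like, 6.58% in intercalated cell-like, 3.95% in thin limb-like and 3.59% in parietal-like cells. It was 5.59% in endothelial-like, 7.15% in mural-like, 6.06% in macrophage-like, 4.18% in dendritic cell-like and 11.8% in T or NK cell-like cells.

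**Figure D2:**
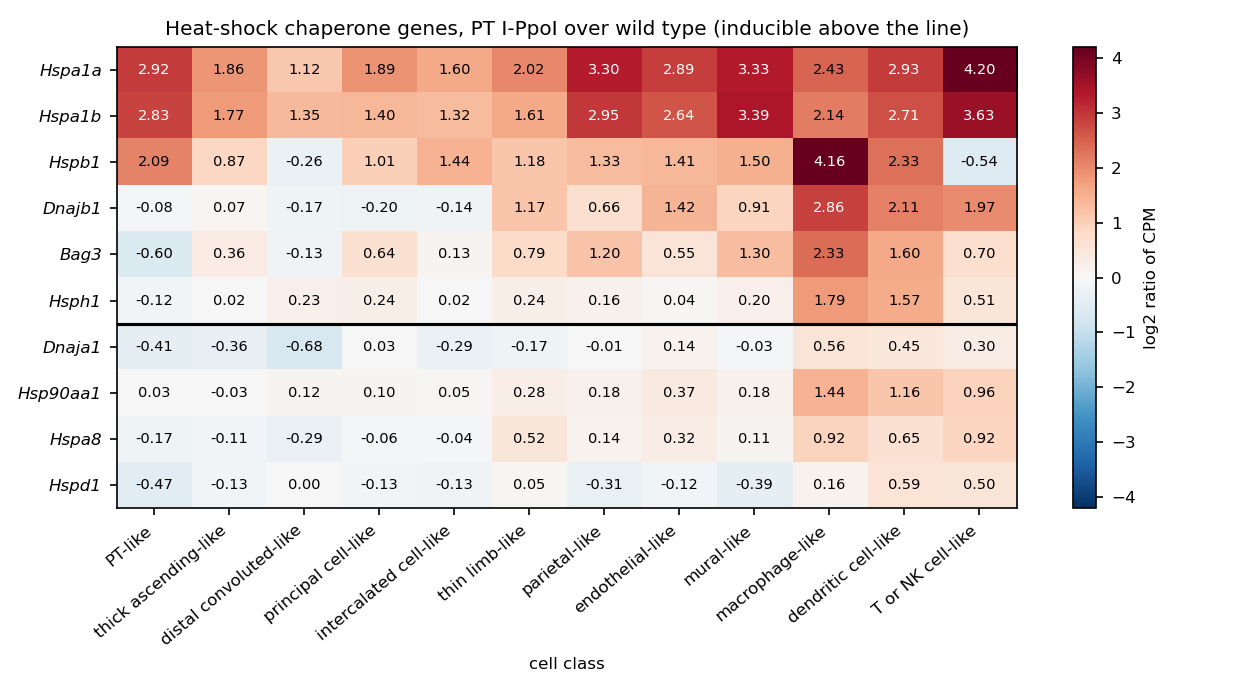
Log2 ratio of CPM, PT I-PpoI over wild type, of the 10 genes (rows, inducible above the line) in the 12 classes (columns), red for higher in PT I-PpoI and blue for lower. The rows of Hspa1a and Hspa1b are red in every column, from 1.12 to 4.20, the lower inducible rows are reddest in the macrophage-like and dendritic cell-like columns, and the constitutive rows stay between −0.68 and 1.44.

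Hspa1a and Hspa1b did not share their UMIs evenly. Hspa1a held 70.9% (70.4 to 71.4) of the pair's UMIs in endothelial-like cells of PT I-PpoI and 67.3% (65.7 to 68.8) in those of wild type. In mural-like cells its share was 71.4% in PT I-PpoI, against 72.3% in wild type. In PT-like cells the genes were nearly equal, with Hspa1a at 52.5% (48.3 to 56.8) in PT I-PpoI, against 51.0% (48.2 to 53.9) in wild type. Thick ascending limb-like cells had 54.7% in PT I-PpoI, against 53.2% in wild type. In principal cell-like cells the share was 62.8% (61.9 to 63.7) in PT I-PpoI, against 54.5% (51.2 to 57.9) in wild type. The intervals of the libraries do not overlap in 4 classes, namely principal cell-like, endothelial-like, macrophage-like and intercalated cell-like cells, and in each of these the share was higher in PT I-PpoI. Overlap depends on the number of UMIs, so the difference need not be confined to these classes. With overlapping intervals, thin limb-like cells had 67.9% in PT I-PpoI, against 61.4% in wild type. T or NK cell-like cells had 61.9% in PT I-PpoI, against 52.4% in wild type. The share was lower in PT I-PpoI in mural-like and in distal convoluted tubule-like cells (54.6%, against 58.5% in wild type). In PT I-PpoI the 3 lowest shares of Hspa1a were those of PT-like, distal convoluted tubule-like and thick ascending limb-like cells. The highest were those of mural-like and endothelial-like cells. Whether the share follows the cell class or the level was not tested.

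**Figure D3:**
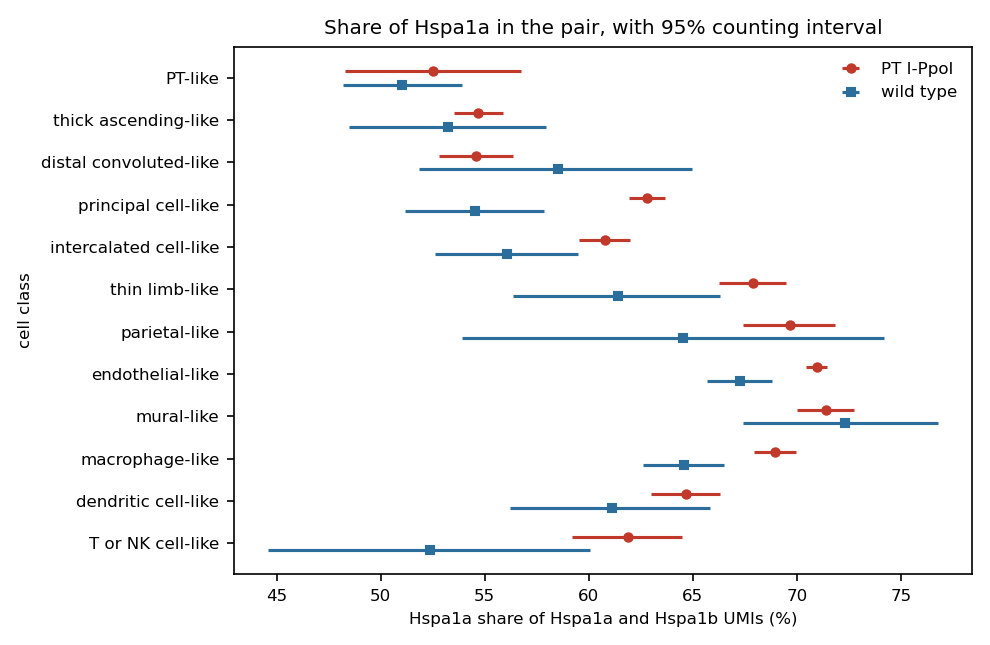
Share of Hspa1a (x, percent) among the UMIs of Hspa1a and Hspa1b in the 12 classes (y), PT I-PpoI as red circles and wild type as blue squares, with 95% counting intervals. The share is near 50% in PT-like cells of both libraries (52.5% in PT I-PpoI, against 51.0% in wild type) and near 70% in endothelial-like and mural-like cells.

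Hspb1 was mainly a vascular gene in both libraries. Endothelial-like cells held 73.0% of its UMIs in kept cells of PT I-PpoI, against 78.3% in those of wild type. Kept cells held 35273 of the 39488 Hspb1 UMIs of all barcodes in PT I-PpoI, against 9548 of 11476 in wild type, so the gap between these shares depends on which barcodes are counted. Endothelial-like cells had 3423 CPM in PT I-PpoI and 1291 CPM in wild type, a log2 ratio of 1.41 (1.37 to 1.44). Mural-like cells followed at 2175 CPM in PT I-PpoI, against 766 CPM in wild type (log2 1.50). Parietal-like cells had 584 CPM in PT I-PpoI and 232 CPM in wild type (log2 1.33), and thin limb-like cells 556 CPM in PT I-PpoI, against 245 CPM in wild type (log2 1.18). Hspb1 was past 2-fold higher in 9 of 12 classes, and 5 of the 9 fell short of 2-fold under at least 1 alternative. The lowest values were 0.69 in PT-like and 0.88 in parietal-like cells as means over cells, 0.59 in principal cell-like and 0.92 in mural-like cells with free RNA subtracted, and 0.41 in dendritic cell-like cells with doublets kept.

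The 4 endothelial clusters ran from 0.88 to 1.63 for Hspb1 and from 2.11 to 3.07 for the HSP70 pair. The lowest of both was the cluster led by Sema3d and Slco1a4, where the pair stood at 3126 CPM in PT I-PpoI and 722 CPM in wild type. The highest was the cluster led by Esm1 and Kdr, with 3894 CPM in PT I-PpoI and 463 CPM in wild type.

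Hspb1 in macrophage-like cells had 214 CPM (300 UMIs) in PT I-PpoI and 11.7 CPM (24 UMIs) in wild type, a log2 ratio of 4.16 (3.59 to 4.86), which was 2.66 with doublets kept. Free RNA would give 20.3 CPM in PT I-PpoI and 8.86 CPM in wild type, so the wild-type level was close to that background. The PT I-PpoI signal lay in few cells, since 12 of its 250 macrophage-like cells held 72.0% of the UMIs. After thinning to 2000 UMIs, 12.2% of cells of PT I-PpoI had an Hspb1 UMI, against 1.21% of those of wild type, where free RNA would give 3.98% in PT I-PpoI, against 1.76% in wild type. Endothelial markers in macrophage-like cells summed to 83.4 CPM in PT I-PpoI and 103 CPM in wild type, with 4 of 12 higher in PT I-PpoI.

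In PT-like cells Hspb1 had 27.1 CPM (57 UMIs) in PT I-PpoI and 6.42 CPM (214 UMIs) in wild type. Free RNA would give 20.0 CPM in PT I-PpoI and 6.32 CPM in wild type, and 27 of the 57 UMIs came from the same 2 cells of the cluster led by Serpina1f. The log2 ratio of 2.09 was 1.35 without that cluster. At these depths the Hspb1 level of PT-like cells was not told apart from background in wild type.

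Hspb1 stood lower in PT I-PpoI in T or NK cell-like cells, at 119.99 CPM (82 UMIs) against 175 CPM (237 UMIs) in wild type, a log2 ratio of −0.54 (−0.92 to −0.17). Of the wild-type UMIs, 226 came from 94 cells of the cluster led by Ncr1 and Gzma, natural killer genes. Endothelial markers in the class summed to 222 CPM in PT I-PpoI and 1745 CPM in wild type, and all 12 of them were lower in PT I-PpoI. Their part was not tested. In the T cell cluster alone, led by Cd3g and Cd3e, Hspb1 had 40.2 CPM in PT I-PpoI and 11.3 CPM in wild type, and the log2 ratio was 1.80. The interval of distal convoluted tubule-like cells included 0, with 27.7 CPM in PT I-PpoI and 33.0 CPM in wild type (log2 −0.26, −0.70 to 0.22).

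Dnajb1, Bag3 and Hsph1 were all past 2-fold higher in macrophage-like and dendritic cell-like cells, and in none of the other classes were all 3. Dnajb1 had 621 CPM in macrophage-like cells of PT I-PpoI and 85.4 CPM in those of wild type, a log2 ratio of 2.86 with a lower bound of 2.63. It stood at 2.11 in dendritic cell-like cells, at 1.97 in T or NK cell-like cells, where it had 358 CPM in PT I-PpoI and 91.4 CPM in wild type, and at 1.42 in endothelial-like cells. Thin limb-like cells had 106 CPM in PT I-PpoI and 46.5 CPM in wild type (log2 1.17), but at equal depth the ratio was 0.09, and 12.2% of cells had a UMI in PT I-PpoI, against 13.8% in wild type. Mural-like cells stood at 0.91 and parietal-like cells at 0.66. In the 5 other tubular classes the ratios lay between −0.20 and 0.07. As means over cells they were above 0 in thick ascending limb-like (0.63), distal convoluted tubule-like (0.54), principal cell-like (0.60) and intercalated cell-like cells (0.30). In PT-like cells the ratio was below 0 under every alternative run on every class. There Dnajb1 had 25.2 CPM in PT I-PpoI and 26.9 CPM in wild type (log2 −0.08, −0.52 to 0.30), and at equal depth the ratio was −0.99. In each of the 5 other tubular classes the HSP70 pair was nevertheless past 2-fold higher.

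Hsph1 was past 2-fold higher in the macrophage-like class, with 169.7 CPM in PT I-PpoI and 48.8 CPM in wild type (log2 1.79), and in the dendritic cell-like class, with 105 CPM in PT I-PpoI, against 35.2 CPM in wild type (log2 1.57). In the other 10 classes its ratio lay between −0.12 and 0.51. Thin limb-like cells had the highest Hsph1 level in both libraries, 314 CPM in PT I-PpoI and 265 CPM in wild type (log2 0.24).

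Bag3 stayed at or under 39.9 CPM in each of the 12 classes of both libraries, and its ratios had wide intervals. It stood at 2.33 (1.46 to 3.38) in macrophage-like cells, from 46 UMIs in PT I-PpoI, against 13 in wild type, and at 1.60 in dendritic cell-like cells, from 21 UMIs in PT I-PpoI, against 6 in wild type. Mural-like (1.30) and parietal-like cells (1.20) were also past 2-fold higher, each from under 50 UMIs a library. After thinning to equal depth neither was, with 0.82 in mural-like cells and the sign turned in parietal-like cells (−0.38). In PT-like cells Bag3 had 6.65 CPM (14 UMIs) in PT I-PpoI and 10.4 CPM (348 UMIs) in wild type, −0.60 (−1.54 to 0.12).

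Outside the immune classes no constitutive member was past 2-fold. Dnaja1 stood at −0.68 in distal convoluted tubule-like cells and Hspa8 at 0.52 in thin limb-like cells. These lay further from 0 than some immune values, such as Dnaja1 in T or NK cell-like (0.30) and Hspd1 in macrophage-like cells (0.16). A split between immune and other classes was seen for Hsp90aa1, and less clearly for Hspa8. The Hspa8 interval of thin limb-like cells (0.38 to 0.67) overlapped that of dendritic cell-like cells (0.57 to 0.74). Hspa8 had 1054 CPM in the PT-like class of PT I-PpoI and 1184 CPM in that of wild type, a log2 ratio of −0.17 (−0.23 to −0.11). Over the 9 epithelial and vascular classes its ratios lay between −0.29 and 0.52. In macrophage-like cells Hspa8 had 2646 CPM in PT I-PpoI and 1400.5 CPM in wild type (log2 0.92), in T or NK cell-like cells 2381 CPM in PT I-PpoI, against 1261 CPM in wild type (log2 0.92), and in dendritic cell-like cells 2599 CPM in PT I-PpoI, against 1654 CPM in wild type (log2 0.65).

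Hsp90aa1 showed the split without such overlap. It had 1381 CPM in macrophage-like cells of PT I-PpoI and 508 CPM in those of wild type, a log2 ratio of 1.44 (1.33 to 1.55), and 1007 CPM in dendritic cell-like cells of PT I-PpoI, against 452 CPM in those of wild type (log2 1.16). T or NK cell-like cells stood just inside the 2-fold line at 0.96. In PT-like cells it had 595 CPM in PT I-PpoI and 582 CPM in wild type (log2 0.03, −0.05 to 0.11), and over the epithelial and vascular classes its ratios lay between −0.03 and 0.37.

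Dnaja1 and Hspd1 stood lower in PT I-PpoI over the whole PT-like class, which different clusters fill in each library. The cluster led by Slc5a12 held 104 of 170 cells of PT I-PpoI, against 798 of 5946 cells of wild type. The cluster led by Lars2 held 2 cells of PT I-PpoI, against 1511 of wild type, and that led by Dpys held 0, against 1114. Over the class, Dnaja1 had 364 CPM in PT I-PpoI and 484 CPM in wild type (log2 −0.41, −0.51 to −0.30). Hspd1 had 439 CPM in PT I-PpoI and 609.6 CPM in wild type (log2 −0.47, −0.57 to −0.38), and PT-like cells had its highest level in both libraries. In the cluster led by Slc5a12 alone both intervals reached 0, at −0.003 (−0.15 to 0.14) for Dnaja1 and −0.12 (−0.27 to 0.01) for Hspd1. Dnaja1 was lowest in ratio in distal convoluted tubule-like cells, with 158 CPM in PT I-PpoI and 253 CPM in wild type (log2 −0.68). Neither was past 2-fold in any class. The 4 constitutive members summed to 2452 CPM in the PT-like class of PT I-PpoI and 2860.1 CPM in that of wild type (log2 −0.22), and to 4751 CPM in macrophage-like cells of PT I-PpoI, against 2441 CPM in those of wild type (log2 0.96).

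The difference in the HSP70 pair was also seen as more cells with a UMI. Each cell was thinned to 2000 UMIs so that depth did not set the share, and shallower cells were left out. In PT-like cells 46 of 165 cells of PT I-PpoI (27.9%, exact interval 21.2 to 35.4) had a UMI of Hspa1a or Hspa1b, and 171 of 3650 cells of wild type did (4.68%). Free RNA alone would give 10.3% in PT I-PpoI, against 1.45% in wild type. Without thinning the shares were 50.6% in PT I-PpoI, against 10.4% in wild type, at class medians of 11075 UMIs in PT I-PpoI, against 3108 UMIs in wild type. In macrophage-like cells 241 of 245 thinned cells of PT I-PpoI had a UMI (98.4%), against 369 of 577 of wild type (63.9%). In endothelial-like cells the counts were 683 of 759 (90.0%) in PT I-PpoI and 580 of 1172 (49.5%) in wild type.

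For Hspa8 the thinned share in PT-like cells was lower in PT I-PpoI, 78.8% in PT I-PpoI, against 87.3% in wild type, and free RNA would give 10.3% in PT I-PpoI, against 20.3% in wild type. Dnajb1 was read in 49.0% of macrophage-like cells of PT I-PpoI and 13.2% of those of wild type, where free RNA would give 0.831% in PT I-PpoI, against 0.815% in wild type. In PT-like cells it was read in 2.42% of cells of PT I-PpoI, against 5.23% of those of wild type. In thinned endothelial-like cells of PT I-PpoI, 93.9% of the 683 cells with an HSP70 UMI also had an Hspb1 UMI, and 73.7% of the 76 cells without one did. In wild type these shares were 88.8% and 66.2%. In thinned PT-like cells of PT I-PpoI, Hspa8 was read in 78.3% of cells with an HSP70 UMI and in 79.0% of cells without one.

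**Figure D4:**
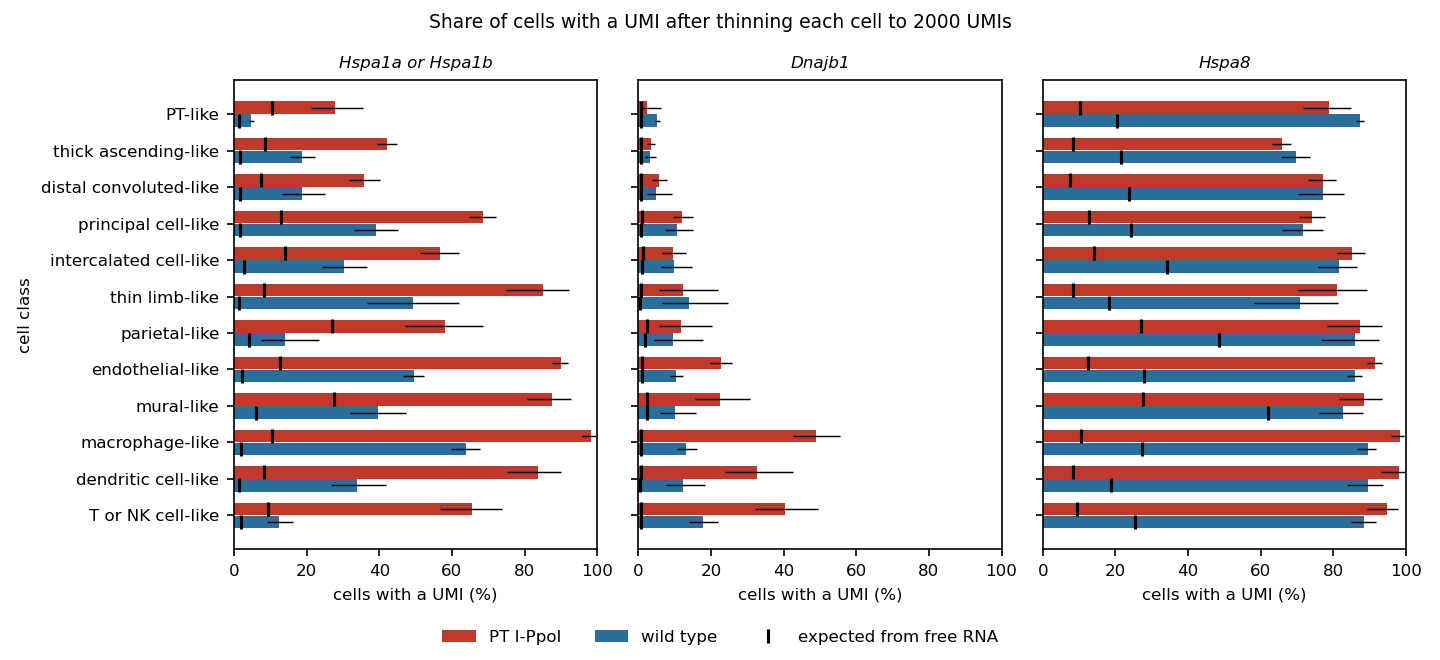
Share of cells with a UMI (x, percent) of the HSP70 pair, Dnajb1 and Hspa8 in the 12 classes (y) after thinning each cell to 2000 UMIs, PT I-PpoI in red above wild type in blue, with exact 95% intervals and black marks for the share that free RNA would give. The red bars of the HSP70 pair are longer than the blue ones in all 12 classes, from 27.9% in PT I-PpoI against 4.68% in wild type in PT-like cells to 98.4% in PT I-PpoI against 63.9% in wild type in macrophage-like cells.

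Among PT-like cells the HSP70 UMIs were unevenly spread in both libraries. The top 8 cells of PT I-PpoI (5% of 170) held 43.7% of the UMIs, and the top 297 of wild type held 73.2%. In macrophage-like cells the top 5% held 11.3% of the UMIs in PT I-PpoI, against 19.9% in wild type. Within principal cell-like cells the ratio of the pair was 2.43 in the cluster led by Scnn1g and S100g and 1.08 in the cluster led by Aqp2. The Aqp2 cluster had the higher level in both libraries, 1339 CPM in PT I-PpoI and 633 CPM in wild type. Within thick ascending limb-like cells it was 1.37 in the deeper cluster, with 394 CPM in PT I-PpoI and 152 CPM in wild type, and 2.54 in the shallower one, with 320 CPM in PT I-PpoI, against 54.8 CPM in wild type.

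The HSP70 difference was read at each mitochondrial share of UMIs, which cell damage can raise but which also differs by cell type. Its median was 31.8% in thick ascending limb-like cells of both libraries. In endothelial-like cells it was 2.93% in PT I-PpoI, against 6.97% in wild type. The bins are therefore not a measure of damage alone. Cells were split at 10% and 30%, and 22 bins of class and share held 20 or more cells in both libraries. The pair was higher in PT I-PpoI in all 22 and 2-fold or more higher in 21. The exception was the 10 to 30% bin of distal convoluted tubule-like cells, at 1.94-fold. In that class of PT I-PpoI the level was 1307 CPM in cells under 10%, 329.7 CPM from 10 to 30% and 237 CPM above, and in wild type it was 212 CPM under 10%, 169.7 CPM from 10 to 30% and 94.3 CPM above. Hspa8 was higher in 11 of the 22 bins and 2-fold higher in none.

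Most other chaperone genes, given from fixed lists, were within 2-fold. In PT-like cells, none of the 13 compared genes of HSP90 and its partners, none of the 17 chaperones of the endoplasmic reticulum, none of the 13 of the TRiC chaperonin and prefoldin, none of the 10 mitochondrial chaperones and none of the 9 BAG and HSP70 partner genes was past 2-fold either way. Their medians ran from −0.21 to 0.01, below the 0.34 of all genes compared. Hspe1, the partner of Hspd1 in the mitochondrial chaperonin, was lower there like Hspd1, with 599.6 CPM in PT I-PpoI and 1004 CPM in wild type (log2 −0.74). Of 5 compared small heat-shock genes, 3 were past 2-fold higher (16.8% of all genes) and 1 lower (4.68%). Among them, Cryab had 202 CPM in PT I-PpoI and 77.4 CPM in wild type (log2 1.39), and it is also on the marker list used for thin limb. Hspb6 was at 0 UMIs in PT I-PpoI and had 102 UMIs in wild type. Of 5 heat-shock factors and regulators, 1 was past 2-fold lower, Hsbp1l1, with 1 UMI in PT I-PpoI against 74 UMIs in wild type. Hsf1, the main heat-shock factor, had 16.2 CPM (34 UMIs) in PT I-PpoI and 11.5 CPM in wild type, a log2 ratio of 0.50 whose interval (−0.07 to 0.99) includes 0. Of the 16 compared genes of other cytosolic HSP70 and HSP40 chaperones, Dnajb4 was past 2-fold higher, at 39.0 CPM in PT I-PpoI and 19.4 CPM in wild type (log2 1.02).

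In macrophage-like cells all 17 chaperones of the endoplasmic reticulum had ratios above 0, with a median of 0.60 against 0.13 for all genes, and none was past 2-fold. Hspa5, the HSP70 of that compartment, had 1094 CPM in PT I-PpoI and 599 CPM in wild type (log2 0.87). Hsp90ab1, the constitutive cytosolic HSP90, had 1717 CPM in PT I-PpoI and 905 CPM in wild type (log2 0.92). In endothelial-like cells Hsp90ab1 stood at 0.41, while the HSP70 pair stood at 2.81.

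The genes of the immediate early response, which digestion of tissue is also known to raise, were compared in the same cells from a list of 39. In PT-like cells 22 of the 35 compared were past 2-fold higher (16.8% of all genes) and none lower (4.68%), with a median of 1.11 against 0.34 for all genes. The transcription factor genes Klf4 (24.2 CPM in PT I-PpoI and 1.74 CPM in wild type, log2 3.80) and Jun (497 CPM in PT I-PpoI, against 95.5 CPM in wild type, log2 2.38) were among the furthest. In endothelial-like cells 15 of 37 were past 2-fold higher (7.05% of all genes), with a median of 0.83 against 0.20 for all genes. In distal convoluted tubule-like and intercalated cell-like cells the early genes and the HSP70 pair went opposite ways. Distal convoluted tubule-like cells had 19 of 35 early genes past 2-fold lower (7.15% of all genes) and none higher, with a median of −1.09, while the pair stood at 1.22. Fos had 181 CPM there in PT I-PpoI and 712 CPM in wild type (log2 −1.98). Intercalated cell-like cells had a median of −0.34, with 6 early genes past 2-fold lower (6.58% of all genes) and 1 past 2-fold higher (2.38%), beside 1.49 for the pair. Principal cell-like cells had a median of −0.01, with −0.35 to 0.48 over the alternatives, beside 1.69. In the remaining classes both were above 0 and the pair was higher than the early median. The early median was 0.41 beside 3.96 for the pair in T or NK cell-like cells, and 0.13 beside 1.82 in thick ascending limb-like cells. A gap between them was thus not confined to the distal classes. The connecting tubule markers within distal convoluted tubule-like cells summed to 7808 CPM in PT I-PpoI and 17838 CPM in wild type, and their part in the result was not tested.

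**Figure D5:**
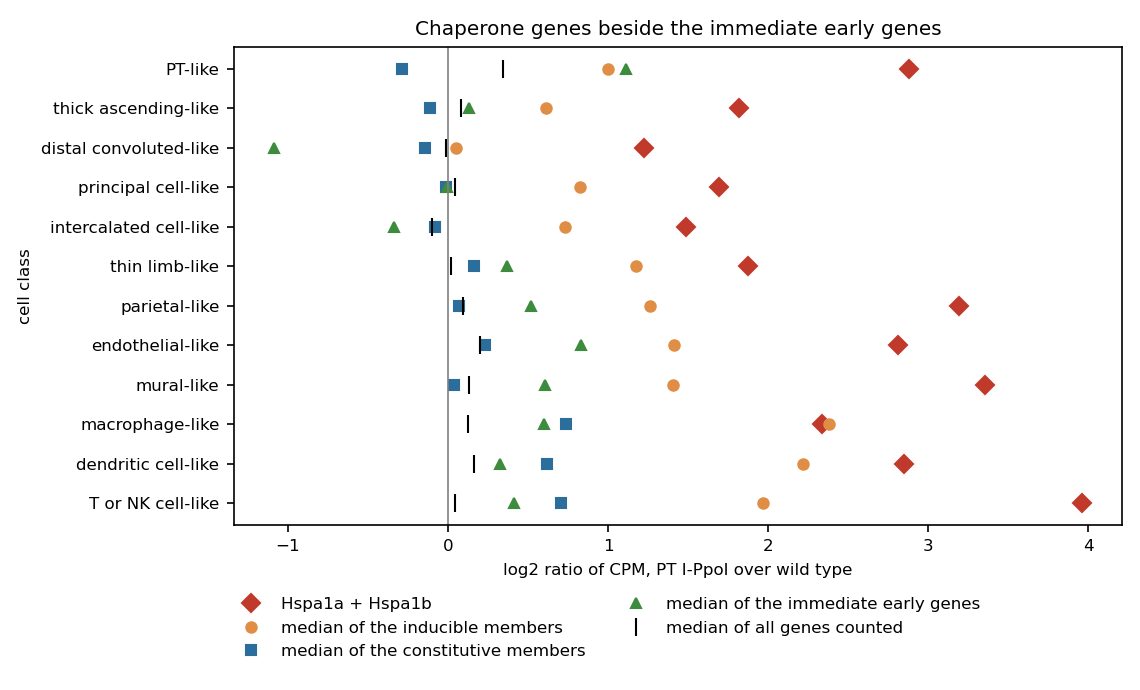
Log2 ratio of CPM, PT I-PpoI over wild type (x), in the 12 classes (y) for the HSP70 pair (red diamonds), the medians of the inducible (orange circles) and constitutive members (blue squares), the median of the immediate early genes (green triangles) and the median of all genes compared (black marks). The red diamonds lie between 1.22 and 3.96, while the green triangles run from −1.09 in distal convoluted tubule-like cells to 1.11 in PT-like cells.

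Genes whose level followed a member over the 12 classes in both libraries were ranked by the lower of the 2 Pearson correlations of log2(CPM + 1), among 5851 genes. The points share library and depth, and the values describe these classes only. For the HSP70 pair the leading genes were Tgs1 (0.88), Skil (0.85), Pias1 (0.85), Mef2a (0.83) and Csnk1e (0.83). For Hspb1 they were Dlc1 (0.93), Klf7 (0.92), Npr1 (0.91), Cops8 (0.91) and Dctn4 (0.91). Hspa8 was followed most closely by Fbl (0.86), Cotl1 (0.85), Rgs10 (0.85), Irf8 (0.85) and Tpt1 (0.84). For Hsp90aa1 the values were lower: Cdc123 (0.65) and Ube2n (0.61) led, followed by Cited2 (0.60), Vma21 (0.59) and Ormdl2 (0.59).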

How the data were processed

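The authors deposited raw UMI counts as 1 matrix a library, with empty barcodes left in, made with the 10x 3′ kit v3.1 from cortex digested at 37 °C, per the labels' protocols. The submitters' processing notes name mm10, Cell Ranger 3.1 and Seurat 3, while the matrix headers name Cell Ranger 4, per the file headers. The features hold no entry for the I-PpoI transgene, so the genotype was not checked from it. The members and lists were chosen with earlier results of these data known.

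Barcodes were called as cells by depth or by a Monte Carlo test against free RNA (500 or more UMIs, rate 0.01). Barcodes with under 200 genes, over 50% mitochondrial UMIs or a Scrublet doublet call (80 for PT I-PpoI, 298 for wild type) were removed. Cells of both libraries were clustered together with scanpy 1.11.5 (2000 variable genes, 30 components, Leiden resolution 1) without the members, other chaperones and early genes, which gave 31 clusters. Clusters were named from fixed markers, with the T and NK lists pooled after seeing that these cells cluster together. UMIs were summed per class and library. Ratios add 0.5 UMIs and have exact conditional binomial intervals; levels have Poisson ones. Free RNA was taken from barcodes ranked 45001 to 90000 by depth (the deep profile). Its share of a class was the median of observed over expected UMIs among markers of other classes. Expression of such markers by the class itself raises that share. No test between the libraries was made. The rule for named genes was all members in each compared class, up to 4 genes of each other list furthest from 0 in a described class among those with at least 30 UMIs in 1 library, and 5 genes of most like pattern. Fos and Cryab's marker role were named after their values were seen. The code for ratios and intervals was run on simulated class sums with counting error only, as the intervals assume. This checks the code and cannot show whether the intervals hold where UMIs are uneven between cells. The alternatives numbered 11, plus 5 chosen after seeing the data.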

Additional observations from a re-analysis of the deposited data

Results flagged for a closer look

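The median log2 ratio of the immediate early genes went opposite ways in 2 classes of the same libraries, −1.09 in distal convoluted tubule-like cells and 1.11 in PT-like cells, while the HSP70 pair was higher in PT I-PpoI in both. Over the alternatives the median ran from −1.41 to −0.67 in distal convoluted tubule-like cells and from 0.79 to 1.69 in PT-like cells. Hspb1 also went opposite ways, at −0.54 in T or NK cell-like cells and 4.16 in macrophage-like cells. Over the alternatives run on every class it ran from −2.19 to −0.42 in T or NK cell-like cells, but in the T cell cluster alone it was 1.80, so the opposite sign rests on the cluster led by Ncr1. In macrophage-like cells the lowest value was 2.66, with doublets kept. The differences between classes were not tested, since each rests on 1 library per group.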

How the results depend on the processing

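The HSP70 pair stayed past 2-fold higher in PT-like cells under the 11 alternatives run on every class, from a log2 ratio of 2.56 to 3.26 around 2.88. It moved beyond its counting interval with a mitochondrial limit of 30% (2.71), with free RNA of the deep profile subtracted (2.69), with TMM factors of edgeR 4.0.16 (2.56), as a mean over cells (3.26), thinned to 2000 UMIs (3.13), in the PT cluster led by Slc5a12 alone (2.44) and without the PT cluster led by Serpina1f (2.70), the last pair of settings chosen after seeing the data. The median of the inducible members in PT-like cells, with Hspa1a and Hspa1b as 2 members, was 1.00. It was 0.44 as a mean over cells and 1.48 after thinning. The median of the constitutive members was −0.29, and was −0.40 with free RNA subtracted, −0.60 with TMM factors, −0.38 after thinning and −0.041 in the cluster led by Slc5a12. The pair was past 2-fold in 12 of 12 classes, in 11 of 12 at Leiden resolution 2 and with free RNA of the deep profile subtracted, and in 10 of 10 when the libraries were clustered separately. The 132 ratios take the 10 members and the sum of Hspa1a and Hspa1b in the 12 classes. Of these, Bag3 in parietal-like cells reversed from 1.20 to −0.38 after thinning. The sum, Hspa1a and Hspa1b were each past 2-fold higher in 12 classes. The 58 ratios past 2-fold, used below, thus count the pair repeatedly and are not separate results. TMM factors moved every ratio of a class by −0.32 to 0.09. Without the cells whose barcode both libraries share, no ratio moved beyond its interval and 57 of 58 ratios past 2-fold were still past it. That number was 53 with free RNA of the deep profile subtracted, 54 as a mean over cells, 54 after thinning and 56 or 57 under the other alternatives with all 12 classes, and it was 48 of 48 with the libraries clustered separately. The causes were not tested. No paired analysis was possible because each group has 1 library. The wild-type cells were shallower, and counts of 13 or fewer UMIs limit Bag3 there in several classes.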

Other observations

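Classes with under 50 cells in a library were not compared, and their HSP70 UMIs are given as raw counts, not set against depth. Median depth was 14799 UMIs in B cell-like cells of PT I-PpoI, against 2011 in wild type. In podocyte-like cells it was 9136 in PT I-PpoI, against 2811.5 in wild type, and in urothelial-like cells 20805, against 8260. In neutrophil-like cells it was 2168 in PT I-PpoI, against 1916 in wild type. Podocyte-like cells held 728 UMIs of Hspa1a and Hspa1b in 45 cells of PT I-PpoI and 5 in 18 cells of wild type. Urothelial-like cells held 2775 UMIs in 99 cells of PT I-PpoI and 69 in 23 cells of wild type, and B cell-like cells 651 in 47 cells of PT I-PpoI and 10 in 135 cells of wild type. Neutrophil-like cells held 19 UMIs in 41 cells of PT I-PpoI and 1 in 23 cells of wild type.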
